A study of Mus musculus with 4 samples.

Results

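Heat shock proteins, the DnaJ cochaperones that drive them, the Bag cochaperones and the Hsf transcription factors were examined in naive CD4+ T cells. Genes were taken by name: every symbol of the DnaJ A, B and C, Hspa, Hspb, Hspd, Hspe, Hsph, Hsp90, Hsf and Bag families that had a probe set paired with that symbol alone. This gave 78 genes with 87 probe sets, of 22180 genes and 41345 probe sets in the table, and where a gene had several probe sets the brightest stood for it. The cells came from C57BL/6 mice of 2 genotypes, TACI-/- (2 arrays) and WT (2 arrays). TACI, encoded by Tnfrsf13b, is a receptor for the cytokines BAFF and APRIL. The cells of both genotypes were sorted as CD62Lhigh, CD44low and CD25- from spleen and lymph nodes that were pooled, were not cultured or treated per the labels, and were hybridised to Affymetrix Mouse Gene 2.0 ST arrays. The age of the mice and the number of mice in a pool are not given in the sources used here. Hsf1, Hsp90ab1 and, since their probe sets are shared with another symbol, Dnaja1, Dnajb8, Dnajc17, Dnajc19 and Hspb2 are not among the 78.

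Molecular chaperones of the Hsp70 family (Hspa genes) hold and release unfolded protein in a cycle of ATP binding and hydrolysis. DnaJ proteins bring clients and start the hydrolysis through their J domain, and Bag and Hsph proteins speed the release of the spent nucleotide. Many of these genes are constitutive, while a smaller set is switched on within minutes by heat and other stress through Hsf1, which binds repeats of the unit GAA in alternating orientation upstream of its targets.

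The upstream stretches of the heat-inducible genes that the results turn on are shown first. They are taken from RefSeq (GRCm38.p6), which held a start site for 64 of the 78 genes. Capitals mark a pair of facing units, GAANNTTC or TTCNNGAA, searched on both strands in the 250 bases before each start. Hspa1a (chr17:34972157-34972406, minus strand) and Hspa1b (chr17:34959239-34959488, minus strand) encode the main inducible Hsp70 and are near-identical neighbours. Hsph1 (chr5:149636337-149636586, minus strand) encodes the large Hsp110, and Bag3 (chr7:128523333-128523582, plus strand) a stress-induced cochaperone of selective autophagy. Hspd1 and Hspe1 encode the mitochondrial chaperonin (Hsp60) and its lid (Hsp10) and are transcribed away from each other, so the 215 bases between their starts (chr1:55087933-55088147, plus strand, the strand of Hspe1) serve both.
Hspa1a: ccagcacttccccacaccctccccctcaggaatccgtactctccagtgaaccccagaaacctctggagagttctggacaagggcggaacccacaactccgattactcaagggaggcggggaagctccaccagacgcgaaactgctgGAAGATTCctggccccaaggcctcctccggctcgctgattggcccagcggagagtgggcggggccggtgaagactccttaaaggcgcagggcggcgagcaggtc
Hspa1b: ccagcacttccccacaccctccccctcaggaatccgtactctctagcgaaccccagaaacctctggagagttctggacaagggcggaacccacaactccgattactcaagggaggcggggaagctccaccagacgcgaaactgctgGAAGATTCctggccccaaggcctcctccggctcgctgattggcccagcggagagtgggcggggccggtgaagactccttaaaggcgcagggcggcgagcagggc
Hsph1: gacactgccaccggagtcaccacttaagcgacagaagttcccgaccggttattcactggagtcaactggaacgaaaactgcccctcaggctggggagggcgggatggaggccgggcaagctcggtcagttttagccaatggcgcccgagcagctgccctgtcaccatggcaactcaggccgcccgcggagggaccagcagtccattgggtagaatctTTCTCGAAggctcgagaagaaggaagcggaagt
Bag3: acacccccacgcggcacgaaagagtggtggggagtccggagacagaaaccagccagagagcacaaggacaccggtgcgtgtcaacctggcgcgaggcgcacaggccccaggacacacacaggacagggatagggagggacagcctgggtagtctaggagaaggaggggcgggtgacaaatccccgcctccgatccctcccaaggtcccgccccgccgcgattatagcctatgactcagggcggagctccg
Hspe1 and Hspd1: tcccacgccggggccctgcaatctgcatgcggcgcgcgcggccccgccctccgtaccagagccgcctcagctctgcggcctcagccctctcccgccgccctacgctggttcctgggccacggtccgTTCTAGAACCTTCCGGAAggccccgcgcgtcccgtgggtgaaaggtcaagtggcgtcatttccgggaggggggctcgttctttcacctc

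The stretches of Hspa1a and Hspa1b shared 98.8% of 250 bases. They differed at C44T, T47C and T249G, with the Hspa1a base first and positions counted from 1 at the 5′ end. Both carry 1 pair of facing units at the same place. The stretch between Hspe1 and Hspd1 holds an unbroken run of units, and with it the longer motif, a pair extended by another unit in the same spacing. A pair of units was present for 6 of the 8 heat-inducible genes with a start site (75%), Hspa1a, Hspa1b, Hsph1, Hspb1, Hspd1 and Hspe1, against 14.5% of all 27025 genes in the promoter table. Over all 64 members with a start site it was present for 14 (21.9%). The heat-inducible list was made of genes already known to respond to heat, so its share is a description, not a test. The longer motif was present for Hspd1, Hspe1 and Dnajb6 among the 64, against 0.514% of all genes. In these counts Hspd1 and Hspe1 share a stretch, and those of Hspa1a and Hspa1b are near-identical. The genes of each pair thus do not count as separate observations. Bag3 and Dnajb1 held neither in these windows. These are matches of letters, not measured binding.

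A low-value filter (2 or more arrays reaching the array's own 40th percentile, 3.74 to 3.77 log2 units) kept 67 of the 78 members for testing. Levels are log2 units of 1 probe set and are compared between arrays, not between genes. The cells carried the mRNAs of CD4+ T cells: Cd4, at 10.6 and 10.4 in TACI-/- cells, against 10.6 and 10.5 in WT cells, and Cd3e, Cd3d, Cd3g, Ccr7, Il7r and Lef1 were above the filter on all 4 arrays. Of these 7 genes 1 had a positive and 6 a negative log2 fold change (TACI-/- minus WT), with a median of -0.13. The lowest was Il7r at -0.48 (limma adjusted p = 0.452). Cd44 and Il2ra, the genes of CD44 and CD25, were above the filter on all 4 arrays, with log2 fold changes of 0.19 and 0.29. Of the CD8 T cell genes, Cd8a was below the filter on every array, while Cd8b1 was at 6.11 and 5.73 in TACI-/- cells, against 6.55 and 6.59 in WT cells. Tnfrsf13b was at 2.73 and 3.09 in TACI-/- cells, against 2.95 and 3.02 in WT cells, below the filter, so the array does not check the genotype. The array medians were 4.11 and 4.13 in TACI-/- cells, against 4.11 and 4.13 in WT cells.

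No chaperone gene passed the adjusted test between the genotypes, and most fitted differences were small. By limma, with Benjamini-Hochberg adjustment over 13782 genes, 0 of the 67 tested members had an adjusted p under 0.05, beside 0.138% of all tested genes, and the lowest adjusted p of a member was 0.299. At an unadjusted p under 0.05 there were 7 members (10.4%), near the 8.78% of all tested genes. Of the 7, 6 were higher in TACI-/- cells and 1 was lower. Of the 1210 tested genes at this threshold, 681 were higher (4.94% of all tested genes) and 529 lower (3.84%). The median log2 fold change of the members was 0.03, TACI-/- minus WT, and that of all tested genes 0.01. The median size of the difference, whatever its sign, was 0.11 for the members and 0.13 for all tested genes. The 95% interval of the log2 fold change lay within 2-fold either way for 62 of the 67 members (92.5%, against 96.1% of all tested genes). The 5 exceptions were Hspa1a, Hspa1b, Hspa2, Dnajc6 and Dnajc28. For 25 members (37.3%) both TACI-/- arrays lay on one side of both WT arrays, against 38.7% of all tested genes. With 2 arrays per genotype, small differences could not be shown, and in a bulk sample fewer cells of a type and less RNA per cell cannot be told apart.

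The widest spread among the members lay within a genotype, in the inducible Hsp70 genes. Hspa1a was at 7.82 and 6.91 log2 units in TACI-/- replicates 1 and 2, and at 8.51 and 6.79 in WT replicates 1 and 2. Hspa1b was at 8.43 and 7.67 in TACI-/- cells, against 8.73 and 7.04 in WT cells. Both genes ran in the same order over the arrays, with WT replicate 1 highest, WT replicate 2 lowest and the TACI-/- arrays between them. WT replicate 1 exceeded WT replicate 2 by 3.29-fold for Hspa1a and 3.23-fold for Hspa1b, which ranked 2 and 5 among 13782 tested genes by the size of the difference between the WT arrays. TACI-/- replicate 1 exceeded TACI-/- replicate 2 by 1.88-fold and 1.70-fold, with ranks of 136 and 266. The protein-coding sequences of this pair are near-identical too, so their probe sets may share signal and the 2 genes do not count as separate observations.

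**Figure D1:**
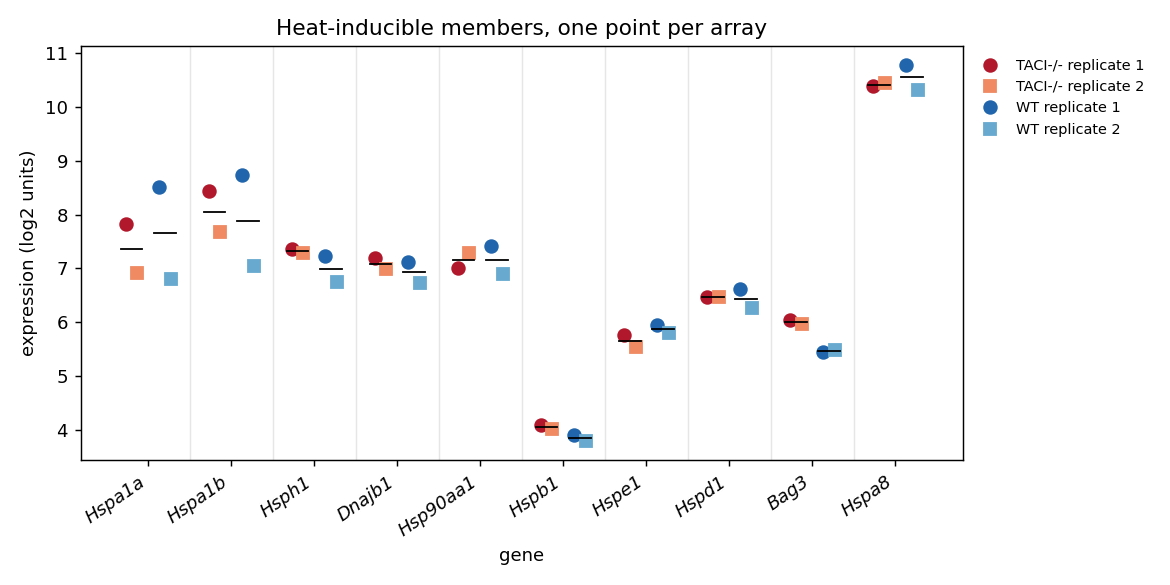
Expression (log2 units, y axis) of the 10 heat-inducible members that could be analysed, with 1 point per array and a black line at each genotype's mean, TACI-/- left of WT. Hspa1a and Hspa1b span 6.79 to 8.73 with overlapping genotypes, while for Bag3 both TACI-/- arrays lie above both WT arrays.

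The genotype difference of the inducible Hsp70 genes was smaller than this spread. Hspa1a averaged 7.37 ± 0.64 log2 units in TACI-/- cells, against 7.65 ± 1.22 in WT cells (SD, n = 2 each), so that the log2 fold change was -0.28 ± 0.55 (SE; adjusted p by limma = 0.932). Its 95% interval ran from -1.60 to 1.03. Hspa1b averaged 8.05 ± 0.54 in TACI-/- cells, against 7.88 ± 1.20 in WT cells (SD, n = 2 each), so that the log2 fold change was 0.17 ± 0.53 (SE; adjusted p by limma = 0.969). Its interval was -1.10 to 1.43, which takes in a 2-fold difference in either direction. The sign turned with the arrays kept: without WT replicate 1 the log2 fold changes of Hspa1a and Hspa1b were 0.58 and 1.01, and without WT replicate 2 they were -1.14 and -0.68. Without TACI-/- replicate 1 they were -0.74 and -0.22, and without TACI-/- replicate 2 they were 0.17 and 0.55. Hspa1b had an unadjusted limma p under 0.05 without WT replicate 1 and Hspa1a without WT replicate 2, in opposite directions.

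Other heat-inducible members varied less, in part in the same way between the WT arrays. Hsph1, the Hsp110 nucleotide exchange factor, was at 7.36 and 7.28 in TACI-/- cells, against 7.22 and 6.74 in WT replicates 1 and 2. Dnajb1, the J protein that works with Hspa1a, was at 7.19 and 6.98 in TACI-/- cells, against 7.11 and 6.73 in WT cells. Hsp90aa1, the inducible cytosolic Hsp90, was at 7.01 and 7.29 in TACI-/- cells, against 7.42 and 6.90 in WT cells. In each of these WT replicate 2 was the lowest array. Hspa8, the largely constitutive Hsp70 (Hsc70), which the heat-inducible list includes, was at 10.4 on both TACI-/- arrays and at 10.8 and 10.3 in WT cells. Hspd1 was at 6.47 and 6.46 in TACI-/- cells, against 6.62 and 6.25 in WT cells. Its partner Hspe1 was at 5.76 and 5.53 in TACI-/- cells, against 5.94 and 5.80 in WT cells, with both WT arrays above both TACI-/- arrays, so the 2 genes of the shared upstream stretch did not have the same order over the arrays. Hspb1, the small heat shock protein Hsp25, was near the filter at 4.09 and 4.01 in TACI-/- cells, against 3.91 and 3.78 in WT cells, without overlap.

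Over the 10 heat-inducible members that could be analysed, WT replicate 1 was above WT replicate 2 for 9, with Bag3 the exception, against 50.2% of all tested genes. The median difference was 0.42 log2 units, and that of all tested genes 0.001. TACI-/- replicate 1 was above TACI-/- replicate 2 for 8 of the 10, against 57.6% of all tested genes, with a median of 0.08 against 0.05. In both genotypes replicate 1 was above replicate 2 for 7 of the 10, against 28.2% of all tested genes. The labels pair no samples by replicate number, so this joint count is not read as an effect shared by the genotypes. WT replicate 2 was the lowest of the 4 arrays for 8 of the 10, against 23.1% of all tested genes; the exceptions were Bag3 and Hspe1. Among the other 57 tested members WT replicate 1 was above WT replicate 2 for 32, with a median difference of 0.06, and TACI-/- replicate 1 was above TACI-/- replicate 2 for 38, with a median of 0.12. The order of the WT arrays was also seen in some other lists: WT replicate 1 was the higher for 7 of 8 endoplasmic reticulum members (median 0.25) and for 6 of 8 mitochondrial members (median 0.12), which include Hspd1 and Hspe1. Lists outside the families varied. WT replicate 1 was the higher for 7 of 9 Cct chaperonin genes, 11 of 19 Hsp90 cochaperones and 3 of 5 prefoldin genes. It was the higher for 4 of 9 other Hsp70 cofactors and 3 of 8 mitochondrial quality control genes. With the near-identical Hspa1b and the largely constitutive Hspa8 left out, an alternative chosen after seeing the data, 8 heat-inducible members remained. WT replicate 1 was above WT replicate 2 for 7 of the 8 (median 0.37), TACI-/- replicate 1 above TACI-/- replicate 2 for 7, both for 6, and WT replicate 2 was the lowest array for 6. This way of reading the arrays was chosen after the values were seen, and no test of the list was made. Early response genes (Fos, Jun, Egr1, Nr4a1 and others, 11 in the list) were also higher in replicate 1 than in replicate 2 for 10 of 11 within TACI-/- cells and for 10 of 11 within WT cells, by medians of 0.33 and 0.26. Their part in the heat-inducible pattern was not tested.

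**Figure D2:**
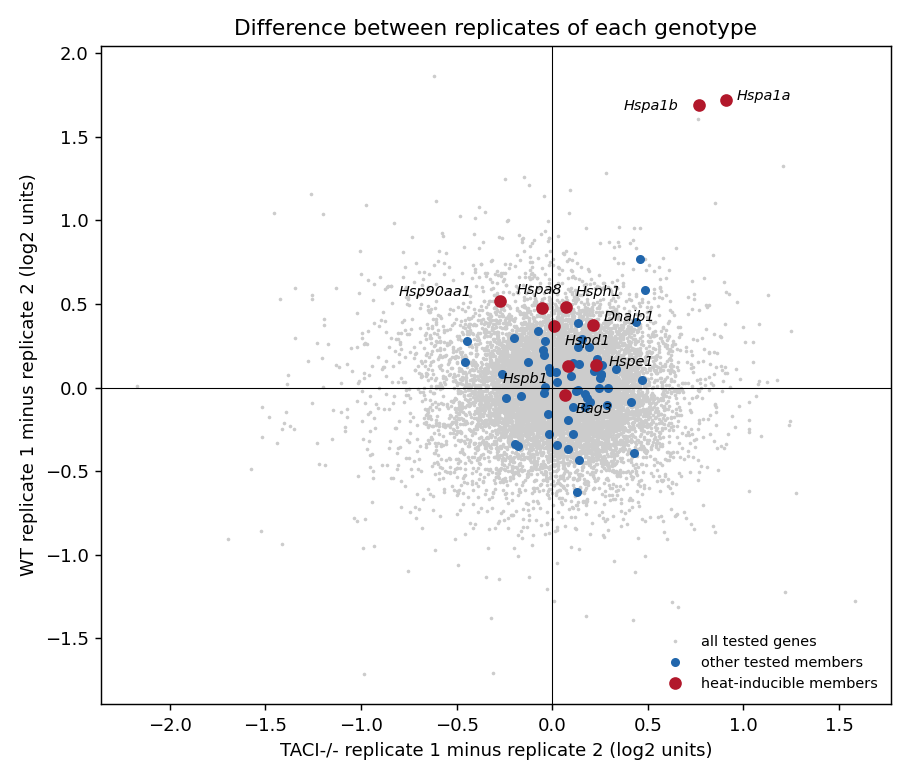
Difference between replicates 1 and 2 in TACI-/- cells (x axis) and in WT cells (y axis), in log2 units, with 1 point per tested gene; members are blue and heat-inducible members red. Hspa1a and Hspa1b stand at the upper right with WT differences of 1.72 and 1.69, and 9 of the 10 heat-inducible members lie above the horizontal zero line.

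Bag3 and Hspa2 had the lowest p of the members. Bag3, which pairs Hsp70 with small heat shock proteins to send damaged protein to autophagy, was at 6.03 and 5.97 in TACI-/- cells, against 5.43 and 5.48 in WT cells. It averaged 6.00 ± 0.05 in TACI-/- cells, against 5.46 ± 0.03 in WT cells (SD, n = 2 each), a 1.46-fold difference. Its log2 fold change was 0.55 ± 0.13 (SE; limma unadjusted p = 0.0043, adjusted p = 0.304), with an interval from 0.24 to 0.85. The arrays did not overlap, and Bag3 was the 1 heat-inducible member whose lowest array was WT replicate 1. Hspa2, an Hsp70 best known from testis, was at 4.57 and 4.59 in TACI-/- cells, against 3.80 and 4.08 in WT cells, near the filter in the WT arrays. Its log2 fold change was 0.65 ± 0.15 (SE; limma unadjusted p = 0.0038, adjusted p = 0.299), a 1.56-fold difference. Both kept an unadjusted p under 0.05 in every alternative that tested them, 14 for Bag3 and 13 for Hspa2, including each fit without 1 array; neither passed after adjustment in any.

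The other 5 members at an unadjusted p under 0.05 each lost it under some of the alternatives. Dnajb13, a J protein of the axoneme of cilia and sperm tails, was at 4.35 and 4.51 in TACI-/- cells, against 3.93 and 3.98 in WT cells, low on all arrays. Dnajc6, auxilin, which uncoats clathrin vesicles, was at 5.51 and 5.38 in TACI-/- cells, against 4.52 and 5.14 in WT cells, so that its difference of 0.62 log2 units leaned on WT replicate 1. Dnajb9, a J protein of the endoplasmic reticulum induced by unfolded protein there, was at 7.96 and 8.41 in TACI-/- cells, against 7.86 and 7.58 in WT cells. The gap between TACI-/- replicate 1 and WT replicate 1 was thus small beside the spread within each genotype. Hspa4l, of the Hsp110 group, was at 6.05 and 5.95 in TACI-/- cells, against 5.62 and 5.73 in WT cells. Dnajc7, which links Hsp70 and Hsp90 through its tetratricopeptide repeats, was at 7.002 and 7.04 in TACI-/- cells, against 7.56 and 7.28 in WT cells, the one of the 7 that was lower in TACI-/- cells. The limma adjusted p of these 5 lay between 0.4 and 0.568. The highest unadjusted limma p over the alternatives was 0.0567 for Dnajb13, 0.191 for Dnajc6, 0.26 for Dnajb9, 0.194 for Hspa4l and 0.191 for Dnajc7.

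**Figure D3:**
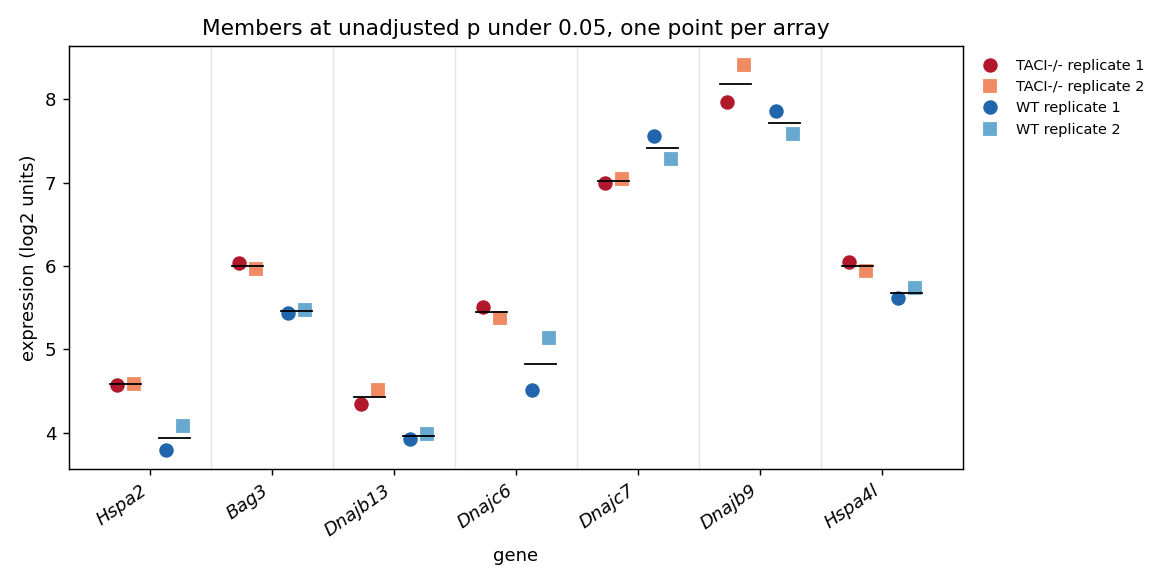
Expression (log2 units, y axis) of the 7 members at an unadjusted limma p under 0.05, ordered by p, with 1 point per array and a black line at each genotype's mean, TACI-/- left of WT. The genotypes do not overlap for any of the 7, which were picked by p in this same fit, beside 38.7% of all tested genes. The WT arrays of Dnajc6 are 0.62 log2 units apart.

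Of the Hsf family, the transcription factors of the response, 3 of 6 genes were tested: Hsf2, Hsf4 and Hsf2bp, which the name rule takes in although it encodes a meiotic binding partner of Hsf2. Their log2 fold changes were -0.07, 0.05 and 0.19. Hsf3, Hsf5 and Hsfy2 were below the filter on all 4 arrays. The Hspa family had 12 tested members of 13, 9 of them with a positive log2 fold change, and a median of 0.10. Hspa9, the mitochondrial Hsp70, was at 8.82 and 8.68 in TACI-/- cells, against 8.55 and 8.57 in WT cells (log2 fold change 0.19). Hspa4, the main Hsp110-type exchange factor of the cytosol, was at 8.03 and 7.85 in TACI-/- cells, against 7.91 and 7.97 in WT cells (0.005). Hspa14, which works at the ribosome, had 0.01, and its 4 arrays lay between 6.28 and 6.32. Hspa12a and Hspa12b, distant relatives of Hsp70, had 0.26 and -0.10. Hspa1l was below the filter on all arrays. The 4 probe sets of Hspa8 gave log2 differences of -0.13 for the one used and -0.13 to -0.16 for the others, and all 4 were higher in WT replicate 1 than in WT replicate 2.

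Among the small heat shock proteins all 5 tested members of 7 had positive log2 fold changes, from 0.04 (Hspb7) to 0.20 (Hspb1), each with an interval that included 0. Hspb6 was at 5.83 and 5.69 in TACI-/- cells, against 5.43 and 5.87 in WT cells, so the genotypes overlapped. Hspb3 and Hspb8, the partner of Bag3, were below the filter on all arrays. The second probe set of Hspb1 was also below the filter, at 2.86 and 3.05 in TACI-/- cells, against 3.59 and 3.41 in WT cells. It ran opposite to the probe set used and, being this low, is not read.

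The chaperones of the endoplasmic reticulum did not share a direction. Of the 8 in the list, 3 were fitted as higher and 5 as lower in TACI-/- cells (median log2 fold change -0.03), and Dnajb9 was the 1 at an unadjusted p under 0.05. Hspa5 (BiP), the Hsp70 of that compartment, was at 8.42 and 8.29 in TACI-/- cells, against 8.51 and 8.13 in WT cells (log2 fold change 0.03, interval -0.37 to 0.44). Hsp90b1 (Grp94), the Hsp90 there, was at 8.82 and 9.02 in TACI-/- cells, against 9.40 and 9.11 in WT cells (-0.33, interval -0.72 to 0.05; limma adjusted p = 0.619). Dnajb9 and Hsp90b1, both targets of the unfolded protein response, thus had fitted differences of opposite sign. Dnajc3 (p58IPK), an inhibitor of eIF2 alpha kinases, Dnajb11 (ERdj3), Dnajc10 (ERdj5, a disulfide reductase) and Dnajc1 had log2 fold changes between -0.06 and -0.02. Hspa13 had 0.22.

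The mitochondrial members were likewise mixed, 3 positive and 5 negative of 8, with a median of -0.06 and none at an unadjusted p under 0.05. Dnajc30 was at 5.27 and 5.29 in TACI-/- cells, against 5.49 and 5.65 in WT cells (log2 fold change -0.29, interval -0.61 to 0.03). Dnajc15, a J protein of the inner membrane import motor, had -0.21, Dnaja3 (Tid1) -0.10 and Dnajc11 -0.01. Dnajc28 had 0.43, with TACI-/- arrays at 4.40 and 3.91 and WT arrays at 4.01 and 3.43, the lowest of them below the filter. Of the 3 probe sets of Dnaja3, the one used and the next brightest had differences of -0.10 and -0.04; the dimmest was below the filter.

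The DnaJ C family, the largest and most varied, had 23 tested members of 26, 7 positive and 16 negative, and a median of -0.05. The genotypes did not overlap for 8 of the 23 (34.8%), beside 38.7% of all tested genes. Of these 8, 2 were higher in TACI-/- cells, Dnajc6 and Dnajc27, a Rab-like GTPase with a J domain (log2 fold change 0.28). The 6 that were lower in TACI-/- cells were, besides Dnajc7, Dnajc15 and Dnajc30, the endosomal Dnajc13 (log2 fold change -0.16), Dnajc2, the partner of Hspa14 at the ribosome (-0.15), and Dnajc21, a factor of ribosome assembly (-0.15). The unadjusted limma p of these 6 lay between 0.0327 and 0.314. Dnajc5, the cysteine string protein, had 0.06, Dnajc9, a histone chaperone, -0.02, and Dnajc8, of the spliceosome, -0.07. Dnajc25 passed the filter most narrowly, by 0.05 log2 units on its second highest array, and Dnajc5b missed it most narrowly, at -0.007 from it. The DnaJ B family had 10 tested members of 12 with a median of 0.03, from -0.11 (Dnajb5) to 0.47 (Dnajb13). Dnajb6, a suppressor of aggregation, stayed between 6.28 and 6.34 on all 4 arrays. Of DnaJ A, the cytosolic Dnaja2 was at 7.64 and 7.62 in TACI-/- cells, against 7.65 and 7.56 in WT cells (0.02), and Dnaja4 had 0.25.

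In the Bag family 5 of 6 did not overlap between the genotypes, beside 38.7% of all tested genes. Besides Bag3, Bag1 was at 5.57 and 5.37 in TACI-/- cells, against 5.20 and 5.28 in WT cells, and Bag5 at 5.58 and 5.32 against 5.28 and 5.14. Bag4, which binds the death domain of a tumour necrosis factor receptor, was at 6.06 and 5.96 in TACI-/- cells, against 5.87 and 5.80 in WT cells. Bag2, an inhibitor of the ubiquitin ligase Chip, was at 4.55 and 4.60 in TACI-/- cells, against 4.63 and 4.66 in WT cells, the 1 Bag gene with lower values. Bag6, which guards membrane proteins before insertion, was at 7.68 and 7.43 in TACI-/- cells, against 7.51 and 7.45 in WT cells. The family median was 0.20, and Bag3 alone had an unadjusted p under 0.05.

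**Figure D4:**
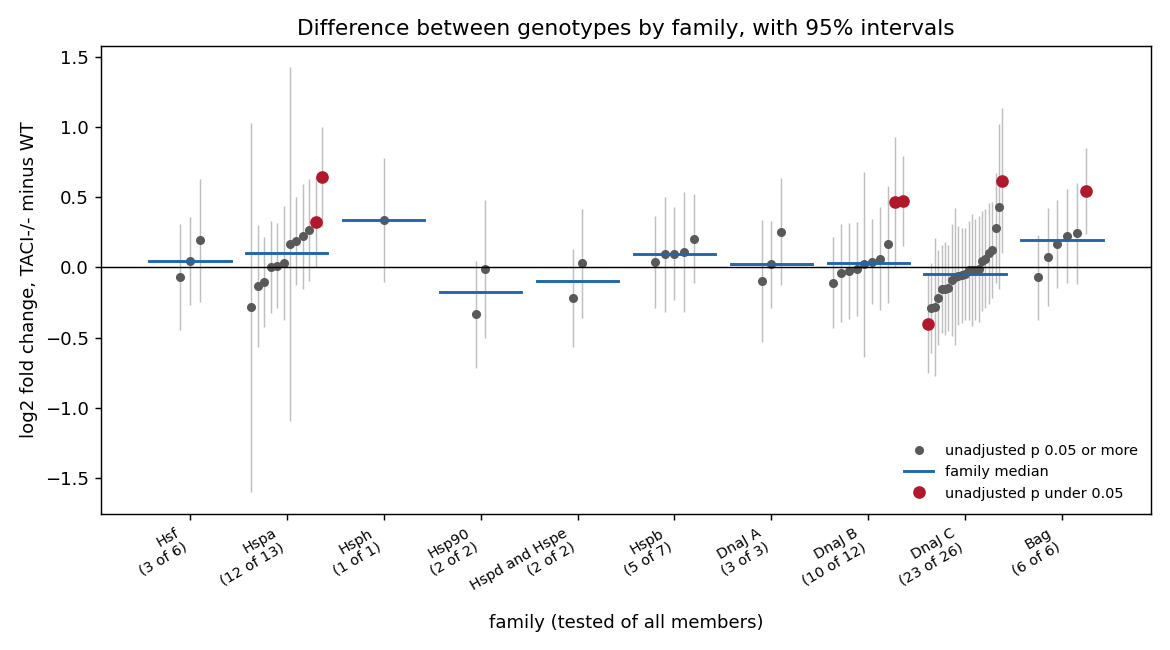
Log2 fold change (TACI-/- minus WT, y axis) of the 67 tested members by family (x axis), with 95% intervals in grey, family medians in blue and members at an unadjusted limma p under 0.05 in red. The intervals of Hspa1a and Hspa1b are the widest, from -1.60 to 1.03 and from -1.10 to 1.43.

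Cochaperones and folding machines outside these families were tested in the same fit. Of 54 genes in 5 lists (the Cct chaperonin, prefoldin, Hsp90 cochaperones, other Hsp70 cofactors and mitochondrial quality control), 48 were tested, 21 with a positive and 27 with a negative log2 fold change. Their median was -0.03, none passed the adjusted threshold, and 3 (6.25%) had an unadjusted p under 0.05, below the 8.78% of all tested genes. The 3 were Stip1, Ttc4 and Ppp5c, all of the Hsp90 cochaperone list (3 of 18 tested, 16.7%). In that list 6 log2 fold changes were positive and 12 negative, with a median of -0.14. Stip1 (Hop), which joins Hsp70 to Hsp90, was at 6.88 and 6.75 in TACI-/- cells, against 7.62 and 7.07 in WT cells (-0.53; limma adjusted p = 0.549). Ttc4 was at 5.42 and 5.36 in TACI-/- cells, against 5.71 and 5.75 in WT cells (-0.34). Ppp5c, a phosphatase that binds Hsp90, was at 6.82 and 6.66 in TACI-/- cells, against 6.27 and 6.34 in WT cells (0.43).

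Marker genes of other cells and early response genes, which rise on stimulation, are given beside these values. The mean over 11 measured B cell markers was 4.62 and 4.36 log2 units in TACI-/- cells, against 4.05 and 4.24 in WT cells. All 8 tested members had a positive log2 fold change, and Ms4a1 and Blk were below the filter on all arrays. Ly86, among the 8, was tested only because its TACI-/- values reached the filter, which neither WT value did. Its positive sign thus came with passing the filter and carries no weight in that count. The mean over 4 regulatory T cell genes was 5.89 and 5.91 in TACI-/- cells, against 5.05 and 4.95 in WT cells. That over the 11 early response genes was 8.15 and 7.81 in TACI-/- cells, against 7.10 and 6.79 in WT cells, all positive. The myeloid list was mixed: of 8 genes 4 were tested, with 2 positive and 2 negative log2 fold changes, and its mean was 3.91 and 3.85 in TACI-/- cells, against 3.96 and 3.91 in WT cells. Of these, Cd68 was at 6.71 and 6.49 in TACI-/- cells, against 6.08 and 5.70 in WT cells, while Lyz2 was at 3.96 and 4.15 in TACI-/- cells, against 4.64 and 4.44 in WT cells. Csf1r and Itgam were above the filter on all arrays, and S100a8, S100a9 and Cd14 were below it on all. Of 6 CD8 T and NK cell genes 3 were tested. Klrd1 and Cd8b1 had log2 fold changes of -0.87 and -0.65, and Nkg7 had 0.17. The mean of this list was 4.32 and 4.41 in TACI-/- cells, against 4.42 and 4.72 in WT cells. Of 5 dendritic cell genes 1 was tested. The part of these cells and genes in the values of Bag3 and Hspa2 was not tested.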

How the data were processed

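The authors deposited 1 log2 value per probe set and array. The submitters' processing notes name RMA and Partek, with no version. The log base is not stated; values of 0.944 to 13.2 were read as base 2, which RMA uses. Aligner and build do not apply, and no filter by the authors is given in the sources used here. Precision is limited by having 2 arrays per genotype. Titles call the replicates biological; p-values measure the spread between these samples.

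Genes were named from the platform annotation (23521 probe sets with 1 symbol, 1814 with several, 16010 with none). All 13782 genes past the filter entered a two-sided limma fit (version 3.58.1, R 4.3.3, moderated by eBayes) with genotype as sole term, adjusted by Benjamini-Hochberg over all of them. Intervals used 6.59 degrees of freedom (scipy 1.17.1). The fit was tested on simulated data. Any 2 arrays had at most 0.44% of their values in common. The labels pair no samples by replicate number, so no block was used. The correlation of the replicate differences of the genotypes over all tested genes was -0.03. A value over all genes does not test smaller sets of genes.

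The members, the lists and the rule for naming genes (members at an unadjusted p under 0.05, the extremes and the brightest of each family, the heat-inducible, endoplasmic reticulum and mitochondrial lists, members with several probe sets and those at the filter's edge) were chosen with earlier results of these data known. Further members named for a role or for arrays that did not overlap were chosen after their values were seen. Promoter sequences came from RefSeq (GRCm38.p6) and were matched by symbol. Alternatives were other filters, normalizations, probe set rules and variance models, the replicate block, and leaving out each array.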

Additional observations from a re-analysis of the deposited data

How the results depend on the processing

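No member passed an adjusted p under 0.05 in limma under any of the 14 alternatives, and the count at an unadjusted p under 0.05, 7 as reported, was 5 to 8 under 9 of the 10 that kept all arrays. Over these 9 the share of members was 7.69% to 11.9%, and that of all tested genes 7.19% to 10.3%. With no moderation of the variance the count was 3 (Bag3, Dnajb13 and Hspa2), 4.48% of members against 7.15% of all tested genes. When 1 array was left out, the log2 fold change ran from 0.10 to 0.58 for Hsph1 and from -0.48 to -0.19 for Hsp90b1. With the replicate block the count was 6 (8.96%, against 8.21% of all tested genes), with Dnajb9 and Hspa4l lost and Dnajc28 gained. By the labels, the replicate numbers pair no samples. Of 562 values of 41 named members under the alternatives, 532 kept their sign, and none passed the adjusted threshold. Of the rest, 29 came from leaving out 1 array and 1 from a further quantile normalization, where Hsp90aa1 had 0.0113. The ranges without 1 array of the members whose sign turned were Hsf2bp -0.0362 to 0.42, Hsf2 -0.24 to 0.11, Hsf4 -0.0134 to 0.11, Hspa1a -1.14 to 0.58, Hspa8 -0.37 to 0.11, Hspd1 -0.15 to 0.22, Hspb6 -0.11 to 0.33, Dnaja3 -0.33 to 0.14, Dnaja2 -0.0237 to 0.0702, Dnajc3 -0.17 to 0.0574, Bag6 -0.0496 to 0.20, Hspa1b -0.68 to 1.01, Dnajb1 -0.0234 to 0.35, Hsp90aa1 -0.27 to 0.25, Hspa5 -0.16 to 0.23, Dnajb11 -0.16 to 0.0896, Dnajc1 -0.19 to 0.0729, Dnajc10 -0.19 to 0.15, Dnajc11 -0.13 to 0.10, Dnajb14 -0.15 to 0.10 and Dnajc25 -0.18 to 0.16. The cause of these turns was not tested beyond the arrays left out. Where 1 array is left out, the lone sample of that genotype is assumed to vary like those of the other. The log2 fold change of the tested members had medians from -0.0059 to 0.106 in these fits. Probe sets near the filter, such as those of Hspb1, Dnajc25 and Dnajc28, have little signal over background.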

Other observations

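Probe sets shared by a member and another symbol were kept out of the comparison. The one paired with both Hspa1a and Hspa1b was at 4.04 and 3.89 log2 units in TACI-/- cells, against 3.98 and 3.25 in WT replicates 1 and 2. WT replicate 2 was the lowest array, but TACI-/- replicate 1 was the highest. This probe set was near the filter, with WT replicate 2 below it, so its order is not read. The probe set of Dnaja1, a heat-inducible J protein of the cytosol, which is shared with Mir207, was at 6.79 and 6.78 in TACI-/- cells, against 6.96 and 6.44 in WT cells. As for the probe sets of Hspa1a and Hspa1b alone, WT replicate 1 was highest and WT replicate 2 lowest. The probe set of Hspb2 and Cryab, small heat shock protein genes that lie side by side, was at 4.38 and 3.95 in TACI-/- cells, against 4.22 and 4.34 in WT cells. A probe set of Dnajc19, of the mitochondrial import motor, and its pseudogene was at 6.56 and 6.37 in TACI-/- cells, against 6.46 and 6.47 in WT cells, with overlap. Another, shared also with Fxr1, was at 4.08 and 4.64 in TACI-/- cells, against 4.94 and 4.63 in WT cells, with overlap. A probe set of Dnajc7 and Nkiras2 was at 5.63 and 5.29 in TACI-/- cells, against 5.65 and 5.25 in WT cells. It did not repeat the lower TACI-/- values of the probe set of Dnajc7 alone. The probe set of Snord14e, a small nucleolar RNA gene in an intron of Hspa8, and Hspa8 was at 9.19 and 9.33 in TACI-/- cells, against 8.95 and 9.68 in WT cells. There WT replicate 2 was above WT replicate 1, while in the 4 probe sets of Hspa8 alone WT replicate 1 was above WT replicate 2.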
